A study of Homo sapiens with 6 samples.

Results

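The 10 fatty acid desaturase and elongase genes FADS1, FADS2, FADS3, SCD, SCD5, ELOVL2, ELOVL4, ELOVL5, ELOVL6 and ELOVL7 were compared between HEK293 wild type (WT) cells and HEK293 MUL1(−/−) cells. The genes were chosen by name and function from 59049 genes in the count tables, with earlier results of these data known. The paper had already named FADS1 and FADS2 among its downregulated genes. All 10 passed the filter on low counts and were among the 26416 genes tested. The HEK293 line was established from human embryonic kidney. MUL1 is an E3 ubiquitin ligase of the mitochondrial outer membrane that was inactivated with CRISPR-Cas9. RNA of 3 libraries per genotype was sequenced, and both genotypes were grown in the same serum-containing DMEM with no treatment. The sources do not say how many MUL1(−/−) clones the libraries came from or whether they are separate cultures, so the p-values measure the spread between these libraries, which may be technical, and a clone and the genotype cannot be told apart. Here MUL1(−/−) names the libraries that carry this label. MUL1 itself was counted at 14.8, 14.5 and 18.2 CPM in WT and at 17.9, 15.9 and 18.3 CPM in MUL1(−/−), a log2 fold change of 0.14 (SE 0.10, edgeR adjusted p = 0.324), so its transcript level did not check the labels.

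Desaturases place double bonds in acyl chains, with electrons delivered through cytochrome b5, and elongases carry out the first step of the cycle that lengthens these chains at the endoplasmic reticulum. SCD and SCD5 make monounsaturated fatty acids such as oleic acid. FADS2 and FADS1 act in turn on the dietary linoleic and alpha-linolenic acids, with ELOVL5 and ELOVL2 between and after them, on the way to arachidonic, eicosapentaenoic and docosahexaenoic acids. ELOVL6 lengthens saturated and monounsaturated chains such as palmitate, ELOVL7 acts on long saturated and unsaturated acyl chains, and ELOVL4 makes very long chains. SREBP transcription factors, the products of SREBF1 and SREBF2, are known to drive many of these genes, and INSIG1 is both a target and a brake of this system.

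Libraries held 132849479 to 149317215 counts in WT and 127466071 to 128125459 in MUL1(−/−), summed over exon bins, the stretches of a gene between neighbouring exon edges, and these totals did not overlap. A count of 1 equalled 0.00677 to 0.00771 CPM (CPM, the count scaled to library size with TMM factors). Of the 11 markers of the embryonic kidney line, 11 were tested and their summed level was 1313 to 1528 CPM in WT and 967 to 1131 CPM in MUL1(−/−), with PAX2 lower by both thresholds and NEFM higher. Fibroblast markers summed to 28.1 to 37.7 CPM in WT and 38.7 to 53.8 CPM in MUL1(−/−), and 3 of 6 passed both thresholds as higher, with log2 fold changes of 3.09 for LUM, 1.37 for COL3A1 and 1.29 for DCN. COL1A1, the most counted of them, went the other way, from 21.0 to 16.0 CPM on average, a log2 fold change of -0.39 (edgeR adjusted p = 0.00819), and COL1A2 and PDGFRA did not pass (0.40 and -0.10). Leukocyte markers summed to 0.981 to 1.44 and 1.87 to 2.41 CPM, with 2 of 5 higher by both thresholds and CD3E at 0 in every WT library. Endothelial markers summed to 0.288 to 0.474 and 0.732 to 0.914 CPM, with 2 of 4 higher by both thresholds. Hepatocyte markers summed to 0.115 to 0.266 and 0.224 to 0.283 CPM, with 1 of 4 tested (ALB, log2 fold change 0.35, edgeR adjusted p = 0.533) and APOB at 0 in every library. The part of these marker changes in the results below was not tested. Fewer cells of a type and less RNA per cell cannot be told apart in such libraries.

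The sequences shown here are those that separate the alternative ends of FADS2 and ELOVL5, whose counts changed unequally along the gene. They were read from GENCODE 29 transcripts on GRCh38, each with the last 30 bases of one exon in lower case and the first 30 bases of the next in capitals, and all printed bases are coding. FADS2-202, annotated as principal, starts at chr11:61827761-61828597 on the plus strand, while FADS2-210 starts at chr11:61816404-61816696 and FADS2-201 at chr11:61816256-61816426. All 3 continue into the same exon 2, chr11:61837778-61837888, so they differ at their amino-terminal end.
FADS2-202: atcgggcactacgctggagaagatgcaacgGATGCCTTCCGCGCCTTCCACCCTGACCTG
FADS2-210: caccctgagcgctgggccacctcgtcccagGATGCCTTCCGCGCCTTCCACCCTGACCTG
FADS2-201: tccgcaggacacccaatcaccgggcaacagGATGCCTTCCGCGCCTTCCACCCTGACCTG

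ELOVL5 is read from the minus strand of chromosome 6. Both of its transcripts shown share exon 2, chr6:53295642-53295707, and then ELOVL5-201, the principal one with 8 exons, goes on to chr6:53291776-53291963, while ELOVL5-202 ends in its exon 3, chr6:53294088-53294491. The capitals mark exon 3 of each.
ELOVL5-201: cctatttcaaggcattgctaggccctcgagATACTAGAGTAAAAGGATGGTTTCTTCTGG
ELOVL5-202: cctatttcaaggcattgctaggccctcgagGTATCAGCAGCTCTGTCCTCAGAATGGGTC

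Genes were compared with edgeR's quasi-likelihood test, with p-values adjusted over all tested genes. A gene past both thresholds differed by more than 1 in log2 fold change, in either direction, at an adjusted p under 0.05, and "rose" or "fell" is written of a gene with an adjusted p under 0.05. Of the 10 genes, 2 were past both thresholds as lower in MUL1(−/−), FADS1 and FADS2, and 0 as higher, where no log2 fold change was above 0.33 and DESeq2, limma-voom and an unadjusted p under 0.05 also gave 0. Of all tested genes, 7.95% were past both thresholds, 3.81% lower and 4.14% higher. By the adjusted p alone, 3 fell (FADS1, FADS2 and SCD), 2 rose (ELOVL5 and ELOVL6) and 5 did neither, where 37.4% of all genes passed, 18.7% as lower and 18.7% as higher. The share of the 10 genes that changed was therefore near the background by the looser rule. The median log2 fold change was -0.08 for the 10 genes and -0.01 for all tested genes. The values of the genotypes were separate in 4 of the 10 genes, and in 48.5% of all those tested.

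**Figure D1:**
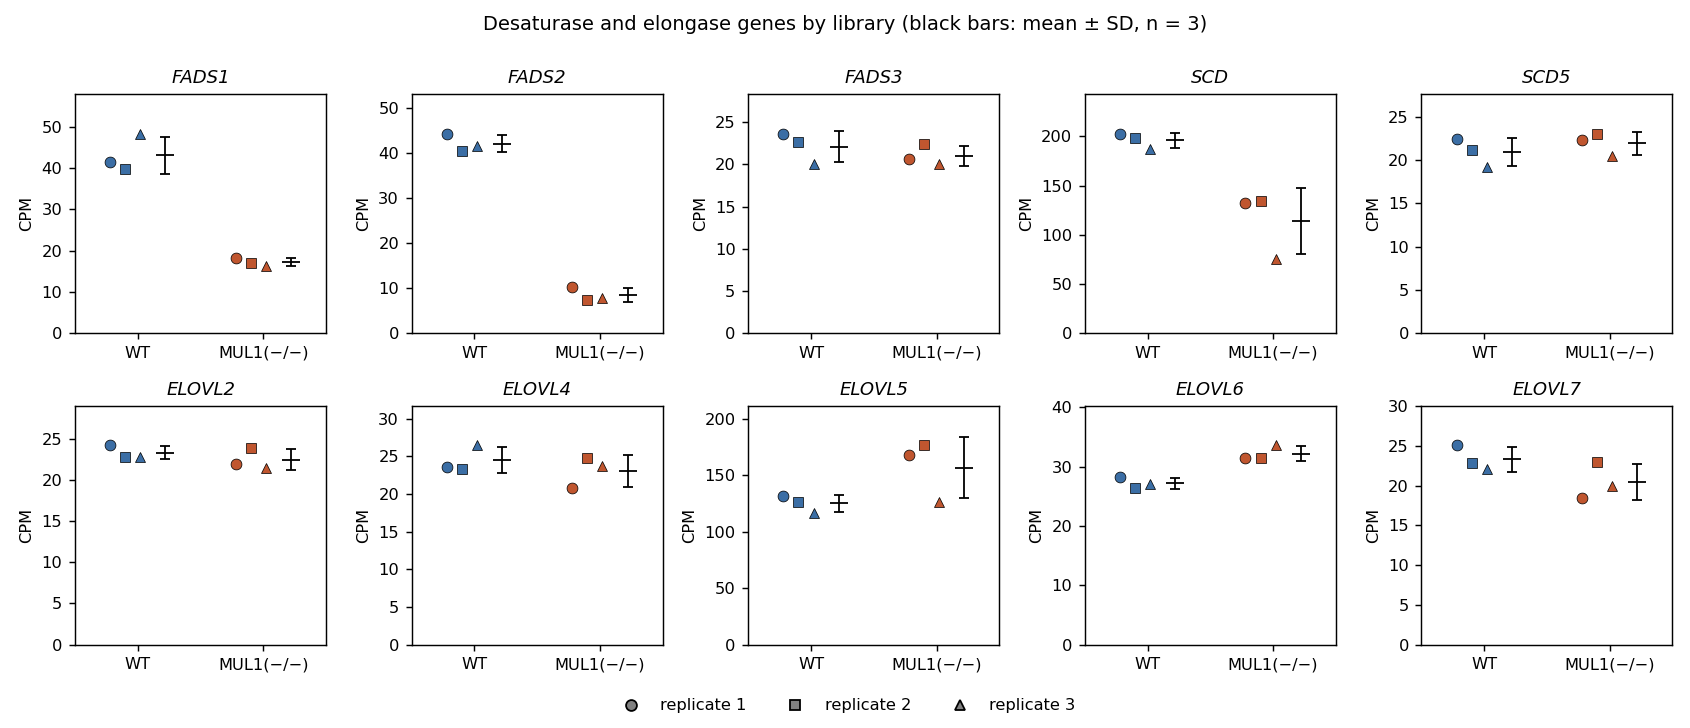
Level of each of the 10 genes in CPM (vertical axes, linear, from 0) in the 3 WT and 3 MUL1(−/−) libraries, with marker shape for the replicate number and black bars for mean ± SD. FADS1 and FADS2 were lower in every MUL1(−/−) library than in every WT library, and the third MUL1(−/−) library stood apart for SCD (75.8 CPM) and ELOVL5 (126 CPM).

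FADS2 (ENSG00000134824, chr11:61792980-61867354, plus strand), the desaturase that opens the polyunsaturated pathway, was the member with the largest change. The bins counted as FADS2 span chr11:61816256-61867354, and 1 bin stayed joined with FEN1. The level of FADS2 was 44.2, 40.4 and 41.7 CPM in the WT libraries and 10.2, 7.38 and 7.90 CPM in the MUL1(−/−) libraries. The highest MUL1(−/−) value was thus far below the lowest WT value. FADS2 fell by 2.31 on the log2 scale (SE 0.11, edgeR adjusted p = 8.78e-10), which is 4.96-fold.

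FADS1 (ENSG00000149485; chr11:61799625-61829318, minus strand) encodes the desaturase that acts after FADS2 and one elongation. It was counted at 41.3, 39.7 and 48.2 CPM in WT and at 18.2, 17.0 and 16.3 CPM in MUL1(−/−), again without overlap. FADS1 fell by 1.33 on the log2 scale (SE 0.09, edgeR adjusted p = 4.22e-08), or 2.51-fold.

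FADS3 (ENSG00000221968; chr11:61873519-61892051, minus strand), the third gene of the cluster, encodes a desaturase that acts on sphingoid bases. Its values were 23.6, 22.6 and 20.04 CPM in WT and 20.6, 22.4 and 20.1 CPM in MUL1(−/−), and the genotypes overlapped. The log2 fold change was -0.07 with an interval of -0.24 to 0.10 (log2 fold change ± 1.96 SE, edgeR adjusted p = 0.560), so a change of the size seen in FADS1 lay outside its interval.

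The ratio of FADS2 to FADS1, taken within each library from counts per kilobase, was 0.996, 0.949 and 0.806 in WT and 0.522, 0.404 and 0.451 in MUL1(−/−). All 3 MUL1(−/−) ratios were below all WT ratios. The log2 ratio differed by -1.002 between the genotypes (exact permutation test, two-sided, p = 0.1, which 3 libraries against 3 cannot go below).

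FADS1 and FADS2 are neighbours on opposite strands with overlapping exons, and the counting did not use the strand, so their shared bins cannot be assigned. Bins that overlap exons of another gene held 8.80% of the FADS1 counts and 11.1% of the FADS2 counts. FADS2 was also listed under an identifier joined with FEN1, from which its bins, except 1 that stayed joined, were separated by the exons of GENCODE 29. Single bins gave values free of both. From exon 2 on, all 19 tested FADS2 bins fell, with log2 fold changes from -2.51 to -2.12 and a median of -2.32. Of the 32 FADS1 bins free of FADS2 exons, 31 fell, with a range of -1.53 to -0.67 and a median of -1.28.

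The 2 most counted FADS2 bins were both in its last exon. The bin at chr11:61865958-61867347 was counted at 6.03, 6.08 and 5.93 CPM in WT and at 1.34, 1.19 and 1.13 CPM in MUL1(−/−), a log2 fold change of -2.30 (SE 0.10, edgeR adjusted p = 1.41e-14 over all exon bins). The bin at chr11:61865638-61865957 gave -2.40 (SE 0.14). For FADS1 the most counted bin, chr11:61799625-61802006, was at 9.10, 8.23 and 10.5 CPM in WT and 3.79, 3.92 and 3.40 CPM in MUL1(−/−), a log2 fold change of -1.32 (SE 0.10, edgeR adjusted p = 3.23e-10). The next, chr11:61803670-61803767, gave -1.33 (SE 0.14). Both FADS1 bins therefore changed by the amount of the whole gene, as did both FADS2 bins.

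**Figure D2:**
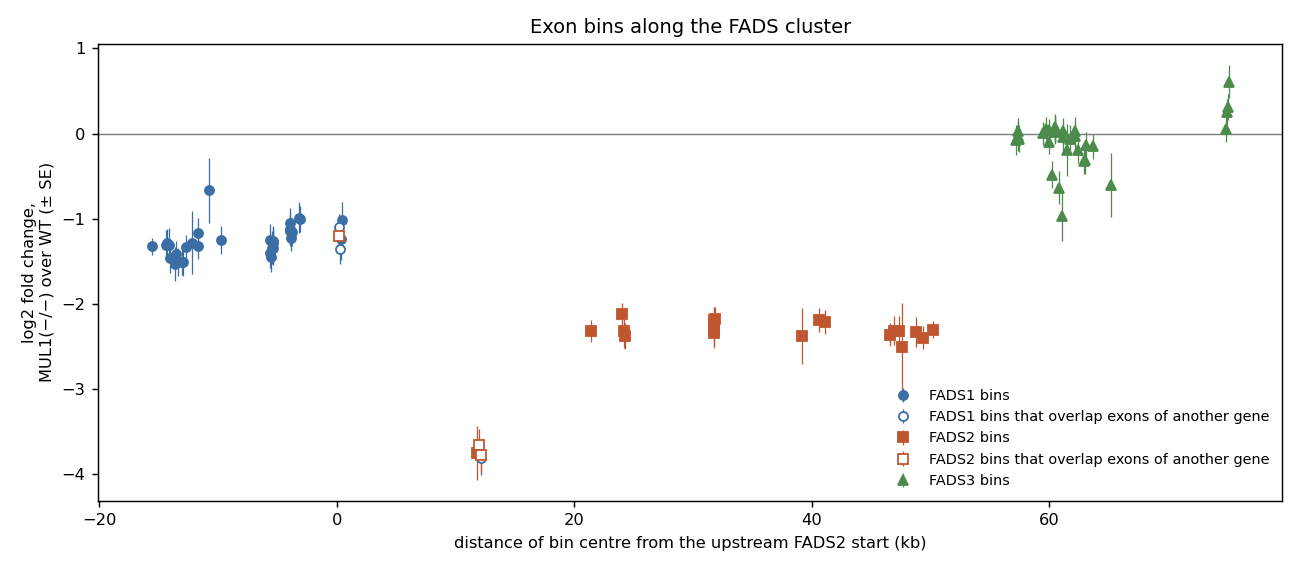
Log2 fold change (MUL1(−/−) over WT, ± SE, vertical axis) of each tested exon bin of FADS1, FADS2 and FADS3 against the distance of its centre from the upstream FADS2 start in kb. Open symbols are bins that overlap exons of another gene. FADS1 bins free of FADS2 exons lay between -1.53 and -0.67, FADS2 bins from exon 2 on between -2.51 and -2.12, and the bins of the principal FADS2 first exon lower, near -3.7.

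The first exon of FADS2-202 changed more than the rest of FADS2. Its bin chr11:61828495-61828597 held 246, 262 and 223 counts in WT and 24, 9 and 17 in MUL1(−/−), a log2 fold change of -3.78 (SE 0.20), and its share within the gene also differed (edgeR diffSpliceDGE adjusted p = 7.69e-07). Bin chr11:61828280-61828494 gave -3.66, with a difference in share at an adjusted p of 1.62e-05 (edgeR diffSpliceDGE). Both overlap a FADS1 exon on the other strand, whose bin chr11:61828450-61828708 gave -3.81 (edgeR diffSpliceDGE adjusted p = 2.26e-17 within FADS1), and these reads cannot be told apart. The FADS2 bin chr11:61828225-61828279, which no exon of another gene touches, held 77, 72 and 55 counts in WT and 4, 3 and 7 in MUL1(−/−). This bin fell by 3.75 on the log2 scale (SE 0.32), and its share within the gene differed at an adjusted p of 0.0242 (edgeR diffSpliceDGE), a call that was lost without WT replicate 1 or 2 or without MUL1(−/−) replicate 1 or 2.

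Within each library, the ratio of the counts of bin chr11:61828495-61828597 to those of exon 2 was 0.732, 0.759 and 0.708 in WT and 0.369, 0.161 and 0.250 in MUL1(−/−). The difference of the log2 ratio was -1.58 (exact permutation test, two-sided, p = 0.1). The unshared bin gave ratios of 0.229, 0.209 and 0.175 in WT and 0.0615, 0.0536 and 0.103 in MUL1(−/−), a log2 difference of -1.54 (exact permutation test, two-sided, p = 0.1). In both the genotypes did not overlap, and the MUL1(−/−) ratios rest on few counts.

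The upstream first exon of FADS2-210 changed less than the rest of the gene. Its bin chr11:61816546-61816696 was counted at 1.29, 1.18 and 1.37 CPM in WT and at 0.659, 0.480 and 0.529 CPM in MUL1(−/−), a log2 fold change of -1.20 (SE 0.15), and its share within FADS2 was higher in MUL1(−/−) (edgeR diffSpliceDGE adjusted p = 4.33e-07). This bin overlaps FADS1 bins on the other strand, chr11:61816555-61816602 and chr11:61816603-61816771, which gave -1.10 and -1.36. Reads of FADS1 and of this FADS2 exon cannot be told apart. The rest of the exon, in bins chr11:61816404-61816426 and chr11:61816427-61816545, held 20 counts per bin over all libraries. Bin chr11:61816546-61816696 held 744, and the overlapping FADS1 bins held 565 and 700. The value is therefore not shown to belong to FADS2.

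Over all members, 164 of 249 bins were tested, of which 67 fell, 15 rose and 57 were past both thresholds. Of all tested bins, 5.3% were past both and 30.2% passed the adjusted p alone (14.8% lower, 15.4% higher). Most member bins that fell were in FADS1 (34), FADS2 (23) and SCD (6). Those past both thresholds were in FADS1, FADS2 and ELOVL5, nearly all in FADS1 and FADS2. Bins of a gene are not independent, so these counts mostly restate the changes of these genes. The share within the gene differed in 7 of the 164 member bins, against 1.53% of all bins tested for it. Of these 7, 4 were in FADS2 and 1 each in FADS1, FADS3 and ELOVL5. The FADS1 bin overlaps called FADS2 bins of the principal first exon, so the same reads were counted more than once. Another of the FADS2 bins overlaps FADS1 exons.

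SCD (ENSG00000099194; chr10:100347124-100364834, plus strand), the main desaturase of saturated chains, was the most expressed member in WT per kilobase. Its level was 202, 198 and 187 CPM in WT and 133, 134 and 75.8 CPM in MUL1(−/−), so all MUL1(−/−) libraries were below all WT libraries and the third was far below the other two. SCD fell by 0.78 on the log2 scale (SE 0.15, edgeR adjusted p = 9.28e-04), or 1.71-fold. Without MUL1(−/−) replicate 3 it fell by 0.55 (edgeR adjusted p = 1.45e-05). All 6 SCD bins fell, with log2 fold changes from -0.79 to -0.65, and the most counted, chr10:100360734-100364834 and chr10:100347124-100347531, gave -0.79 and -0.76.

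SCD5 (ENSG00000145284; chr4:82629539-82798857, minus strand), the other stearoyl-CoA desaturase of human cells, was counted at 22.4, 21.2 and 19.2 CPM in WT and 22.3, 23.0 and 20.4 CPM in MUL1(−/−). The genotypes overlapped. Its log2 fold change was 0.07 with an interval of -0.10 to 0.24 (edgeR adjusted p = 0.580), and its 7 bins ranged from -0.47 to 0.13, with the most counted at 0.08 and 0.11. The ratio of SCD to SCD5 per kilobase was 7.24, 7.50 and 7.81 in WT and 4.76, 4.68 and 2.97 in MUL1(−/−), a log2 difference of -0.89 (exact permutation test, two-sided, p = 0.1).

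ELOVL5 (ENSG00000012660; chr6:53267398-53349179, minus strand), which elongates the products of FADS2 and FADS1, was counted at 132, 126 and 117 CPM in WT and 168, 177 and 126 CPM in MUL1(−/−). The first and second MUL1(−/−) libraries were above every WT library, and the third lay within the WT range. ELOVL5 rose by a log2 fold change of 0.33 (SE 0.10, edgeR adjusted p = 0.0208), and the call was lost without WT replicate 2 or 3 or MUL1(−/−) replicate 1 or 2 and with the most counted bin in place of the sum. Without MUL1(−/−) replicate 3 the value was 0.46 (edgeR adjusted p = 1.09e-04). Over the 16 alternative fits that test against no change, to which the ranges of adjusted p given here refer, the edgeR, DESeq2 or limma adjusted p ran from 1.09e-04 to 0.0981. edgeR's glmTreat, which asks whether a change exceeds 1 in log2, is not among these fits, and only FADS1 and FADS2 of the members passed it. Of its 15 tested bins 12 rose, and the most counted, chr6:53267399-53269270 and chr6:53275125-53275261, gave 0.27 and 0.41.

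The last exon of ELOVL5-202 was counted at 1.23, 1.44 and 1.24 CPM in WT and at 3.58, 3.35 and 1.70 CPM in MUL1(−/−). Every MUL1(−/−) library was above the WT libraries, with the third nearest to them. The log2 fold change was 1.14 (SE 0.18, edgeR adjusted p = 2.7e-05 over all exon bins). Its share within ELOVL5 also differed (edgeR diffSpliceDGE adjusted p = 0.0132), a call lost on leaving out any library other than MUL1(−/−) replicate 3. Relative to exon 2, its counts were 0.215, 0.279 and 0.231 in WT and 0.449, 0.436 and 0.307 in MUL1(−/−), a log2 difference of 0.71 (exact permutation test, two-sided, p = 0.1).

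ELOVL2 (ENSG00000197977; chr6:10980759-11044314, minus strand), the elongase of longer polyunsaturated chains on the way to docosahexaenoic acid, was at 24.2, 22.8 and 22.8 CPM in WT and 22.0, 23.9 and 21.5 CPM in MUL1(−/−). The genotypes overlapped, and the log2 fold change was -0.05 with an interval of -0.21 to 0.10 (edgeR adjusted p = 0.649). Its 8 bins ranged from -0.22 to 0.19, and the most counted gave -0.03 and -0.18. The ratio of ELOVL5 to ELOVL2 per kilobase was 5.72, 5.80 and 5.38 in WT and 8.004, 7.75 and 6.14 in MUL1(−/−), a log2 difference of 0.36 (exact permutation test, two-sided, p = 0.1). With the most counted bin of each gene it was 0.28 (exact permutation test, two-sided, p = 0.3).

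ELOVL6 (ENSG00000170522; chr4:110045846-110199199, minus strand) was at 28.2, 26.3 and 27.1 CPM in WT and at 31.4, 31.5 and 33.6 CPM in MUL1(−/−). The genotypes did not overlap. ELOVL6 rose by a log2 fold change of 0.24 (SE 0.07, edgeR adjusted p = 0.0174), or 1.18-fold, and the call was lost without WT replicate 2. Of its 15 tested bins 2 rose, and the most counted, chr4:110049387-110051669 and chr4:110045846-110049386, gave 0.27 and 0.14.

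ELOVL7 (ENSG00000164181; chr5:60751791-60844389, minus strand) was at 25.1, 22.8 and 22.1 CPM in WT and at 18.4, 23.0 and 20.001 CPM in MUL1(−/−), with the second MUL1(−/−) library inside the WT range. Its log2 fold change was -0.19, and ELOVL7 did not pass the edgeR test before or after adjustment (edgeR adjusted p = 0.129). The interval of -0.37 to -0.0057 (log2 fold change ± 1.96 SE) was wholly negative, but it is narrower than the edgeR test implies. Without MUL1(−/−) replicate 2 the log2 fold change was -0.27 (edgeR adjusted p = 0.0490, over the 16 fits 0.0490 to 0.429). Of its 18 tested bins 1 fell, the most counted one at -0.27, and the next gave -0.04.

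ELOVL4 (ENSG00000118402; chr6:79914812-79947580, minus strand) was at 23.6, 23.4 and 26.5 CPM in WT and at 20.7, 24.7 and 23.7 CPM in MUL1(−/−). The values overlapped, and the log2 fold change was -0.09 with an interval of -0.26 to 0.09 (edgeR adjusted p = 0.475). Its 6 bins ranged from -0.16 to 0.09, and the most counted gave -0.16 and -0.02.

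FADS3 had 31 tested bins, of which 3 fell and 1 rose. The bin chr11:61877446-61877510, part of transcripts annotated with a retained intron, was at 0.355, 0.443 and 0.238 CPM in WT and 0.238, 0.209 and 0.0843 CPM in MUL1(−/−). This bin fell by 0.97 on the log2 scale (SE 0.30), and its share within FADS3 differed at an adjusted p of 0.0281 (edgeR diffSpliceDGE), which was lost without WT replicate 1 or 2 or MUL1(−/−) replicate 2 or 3. The most counted FADS3 bins gave 0.0038 and -0.48.

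**Figure D3:**
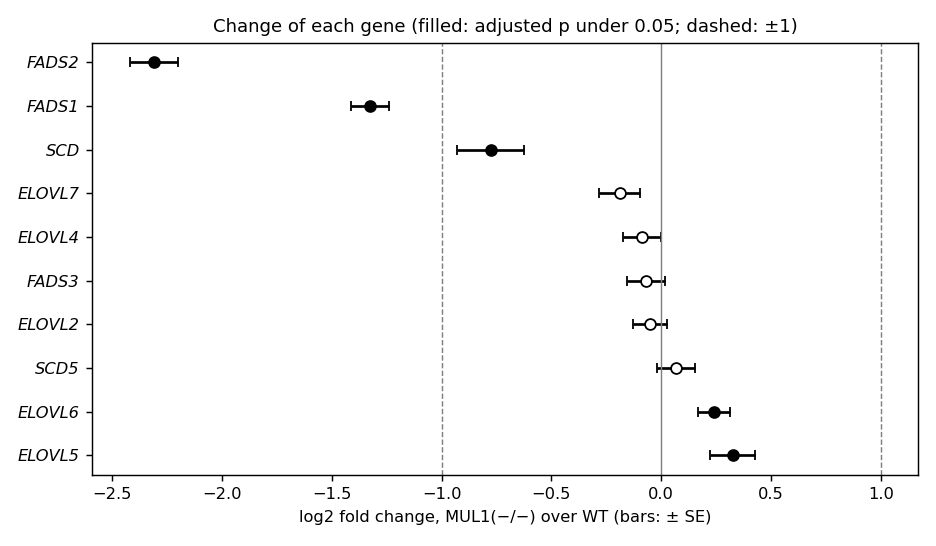
Log2 fold change of the 10 genes (horizontal axis, MUL1(−/−) over WT) with bars of ± SE from edgeR. Filled points had an adjusted p under 0.05 and dashed lines mark ±1, which FADS2 (-2.31) and FADS1 (-1.33) passed.

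Per kilobase of summed bin length, the members ranked in WT, by mean level, as SCD at 36.5 ± 1.45 CPM per kb (SD, n = 3), ELOVL5 at 32.8 ± 1.97, ELOVL4 at 8.05 ± 0.563, ELOVL2 at 5.83 ± 0.199, ELOVL7 at 5.10 ± 0.343, SCD5 at 4.87 ± 0.373, FADS1 at 4.21 ± 0.440, FADS2 at 3.83 ± 0.176, ELOVL6 at 3.73 ± 0.127 and FADS3 at 3.52 ± 0.292 CPM per kb. From ELOVL7 down, each gene's libraries overlapped with those of its neighbour in this order, and above ELOVL7 no neighbours overlapped. In MUL1(−/−), ELOVL5 ranked first at 41.1 ± 7.10 and SCD second at 21.3 ± 6.23 CPM per kb, without overlap. FADS1 at 1.68 ± 0.091 and FADS2 at 0.773 ± 0.135 CPM per kb were last there, each below its upper neighbour in every library. A read that touches several bins was counted in each, so these levels depend on how finely a gene is divided and rank genes only roughly.

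Taking genes with at least 1 CPM on average, those whose levels over the 6 libraries were nearest to FADS1, each relative to its WT mean, were ADAMTSL5, TMEM38A and PAQR7, with root mean square differences of 0.0585, 0.0719 and 0.0915 on the log2 scale over 16603 genes. Nearest to FADS2 were GPX4, CNN2 and SYT6 at 0.150, 0.157 and 0.159.

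Around the members, 73 other genes in 7 lists were examined, of which 70 were tested. Of these 1 was past both thresholds as higher and 4 as lower (7.14%, against 7.95% of all genes), and by the adjusted p alone 16 rose and 18 fell (48.6%, against 37.4%). Their median log2 fold change was -0.04.

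Of the 18 tested genes that control desaturase transcription, 4 rose and 4 fell. INSIG1, which holds SREBP precursors in the endoplasmic reticulum, was at 139.8, 133.7 and 94.1 CPM in WT and 52.0, 54.5 and 23.8 CPM in MUL1(−/−). The genotypes did not overlap, and INSIG1 fell by 1.496 (log2, SE 0.23, edgeR adjusted p = 1.06e-04). SREBF1, which encodes the SREBP of fatty acid synthesis, was at 48.4, 43.8 and 38.6 CPM in WT and 78.8, 71.8 and 55.5 CPM in MUL1(−/−), without overlap, and rose by 0.66 (log2, SE 0.11, edgeR adjusted p = 3.36e-04). SREBF2, the SREBP of cholesterol synthesis, fell by 0.44 (SE 0.10, edgeR adjusted p = 0.002), from 162, 152 and 125 CPM to 115, 112 and 95.7 CPM. SREBF1 rose while SREBF2, INSIG1, FADS2 and SCD fell, and a link between these changes was not tested. Within both genotypes the third library was the lowest for INSIG1, SREBF1, SREBF2, SCD and ELOVL5.

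Fatty acid synthesis before elongation did not move one way, with 2 of 9 genes higher and 3 lower. FASN, the fatty acid synthase, was at 1529.7, 1412 and 1182 CPM in WT and 923, 853 and 927 CPM in MUL1(−/−), a fall of 0.61 (log2, SE 0.08, edgeR adjusted p = 4.68e-05). ACACA, an acetyl-CoA carboxylase, was at 116, 119 and 101 CPM in WT and 159.8, 160.4 and 155 CPM in MUL1(−/−), a rise of 0.50 (log2, SE 0.07, edgeR adjusted p = 7.29e-05). Neither gene's genotypes overlapped.

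**Figure D4:**
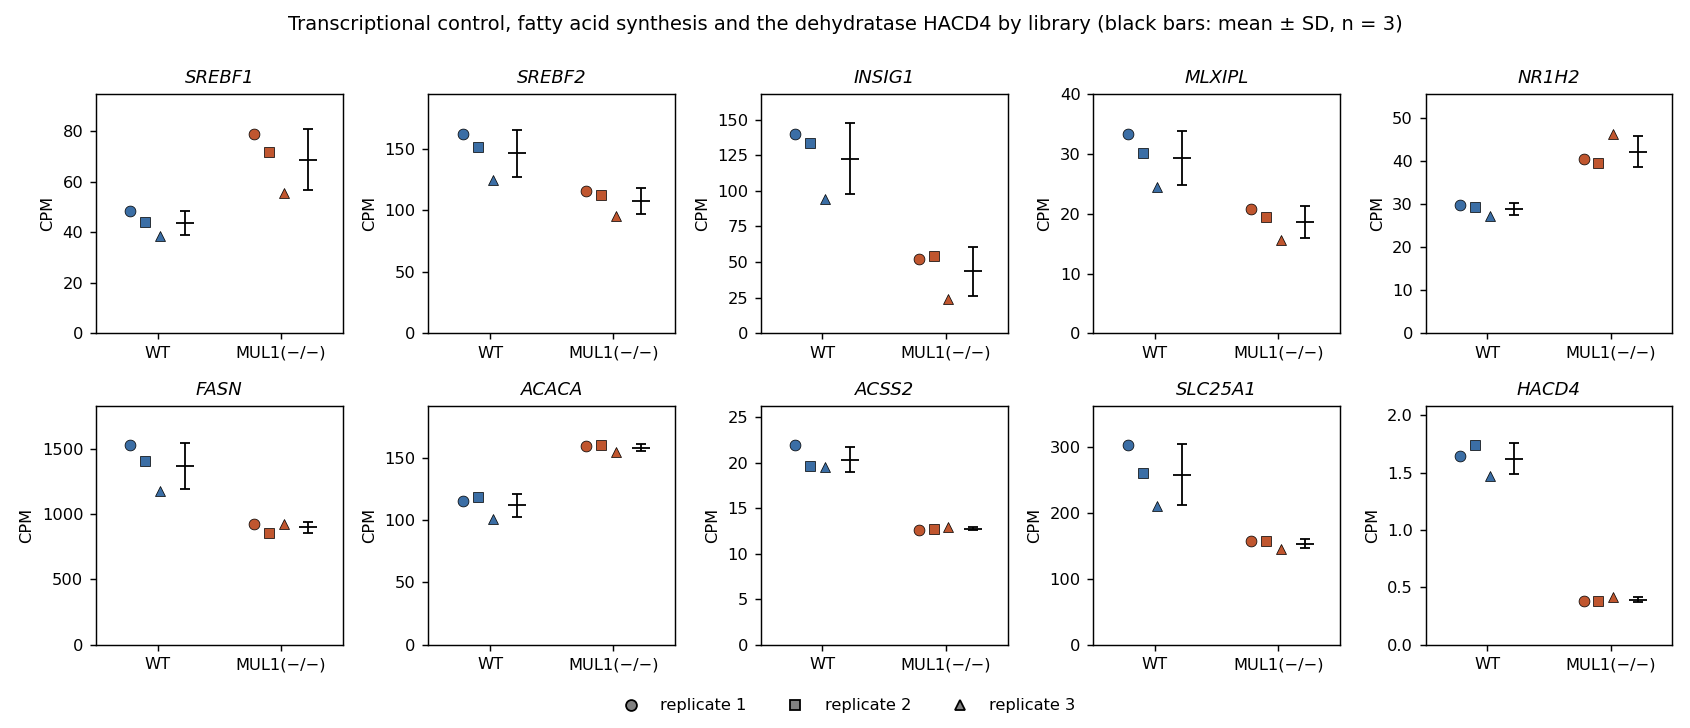
Level in CPM (vertical axes, linear, from 0) of 5 genes of transcriptional control, 4 of fatty acid synthesis and the dehydratase HACD4 in 3 WT and 3 MUL1(−/−) libraries, with black bars for mean ± SD. SREBF1, NR1H2 and ACACA were higher in every MUL1(−/−) library than in every WT library. INSIG1, SREBF2, MLXIPL, FASN, ACSS2, SLC25A1 and HACD4 were lower. Every gene shown had an edgeR adjusted p under 0.05, which 10 of the 18 tested control genes and 4 of the 9 synthesis genes did not have.

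Of the 7 tested genes of the elongation cycle and other elongases, 2 rose and 2 fell. HACD4, one of the dehydratases of the third step, was at 1.65, 1.74 and 1.47 CPM in WT and 0.378, 0.382 and 0.416 CPM in MUL1(−/−), and it fell by 2.05 (log2, SE 0.17, edgeR adjusted p = 3.90e-07) from a low level. HACD3 and HACD2, dehydratases of the same step, rose, HACD3 from 324 ± 15.3 to 385 ± 36.8 CPM (SD, n = 3; log2 fold change 0.25, edgeR adjusted p = 0.0160) and HACD2 from 27.4 ± 1.55 to 33.8 ± 2.54 CPM (log2 fold change 0.30, edgeR adjusted p = 0.00794). The HACD3 call was lost in at least 1 alternative (edgeR, DESeq2 or limma adjusted p of up to 0.0571). The reductase TECR of the last step fell by 0.23 (SE 0.07, edgeR adjusted p = 0.0127). ELOVL1 and the ketoreductase HSD17B12 gave -0.06 and -0.05, with edgeR adjusted p of 0.540 and 0.649. ELOVL3 was not tested, at no more than 0.0987 CPM in any library.

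Electron supply and other desaturases had 2 of 9 tested genes higher and 1 lower. CYB5R2, a cytochrome b5 reductase, rose by 1.28 (log2, SE 0.36, edgeR adjusted p = 0.0106) at the low levels of 0.0979, 0.264 and 0.228 CPM in WT and 0.476, 0.673 and 0.293 CPM in MUL1(−/−). It was the list gene past both thresholds as higher, and it no longer was without WT replicate 1 or MUL1(−/−) replicate 2 or with the most counted bin. Over the 14 fits in which it was tested its log2 fold change ranged from 0.96 to 1.56 and its adjusted p (edgeR, DESeq2 or limma) from 1.03e-04 to 0.0755.

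Among the 10 listed genes for activation and incorporation of acyl chains, 3 rose and 4 fell. MBOAT1, a lysophospholipid acyltransferase, was at 8.10, 8.67 and 7.32 CPM in WT and 3.01, 3.81 and 4.06 CPM in MUL1(−/−), and it fell by 1.15 (log2, SE 0.13, edgeR adjusted p = 6.01e-06). Of the 8 peroxisomal genes that complete docosahexaenoic acid, 1 passed the test, PEX7, which fell by 0.51 (SE 0.10), a call lost in at least 1 alternative (edgeR, DESeq2 or limma adjusted p of up to 0.0703).

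Of the 12 genes around the FADS cluster, members included, 3 rose and 5 fell, and 3 were past both thresholds as lower, FADS1, FADS2 and DAGLA. DAGLA, a diacylglycerol lipase, was at 9.90, 9.11 and 10.1 CPM in WT and 4.94, 4.27 and 4.85 CPM in MUL1(−/−), and fell by 1.05 (log2, SE 0.10, edgeR adjusted p = 2.29e-06). Without MUL1(−/−) replicate 2 DAGLA gave -0.97, and it was then no longer past both thresholds, as was also so with library totals. FEN1, the flap endonuclease whose identifier is joined with FADS2, rose by 0.29 (SE 0.09, edgeR adjusted p = 0.0156), and TMEM258, which is next to it, fell by 0.26 (SE 0.08, edgeR adjusted p = 0.0143). The calls of FEN1, TMEM258 and TECR were lost in some alternatives, with edgeR, DESeq2 or limma adjusted p of up to 0.0988, 0.0935 and 0.130. The bins counted as FADS1 and FADS2 lie between FEN1, which rose, and FADS3, which did not pass the test.

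Promoter sequences of all 10 members, from 250 bases before to 50 after the annotated start, were taken from RefSeq on GRCh38.p14 and searched on both strands. The CCAAT box (CCAAT) was in those of 6 members, FADS2, FADS3, SCD, SCD5, ELOVL4 and ELOVL5, and in 34.6% of 35116 promoters. The GC box (GGGCGG) was in those of 9 members and 45.0% of promoters, the E-box (CACGTG) in those of ELOVL4 and ELOVL5 and 7.26%, and the sterol regulatory element (TCACNCCAC) in 0 members and 1.13%. A match is a description only. For the members that fell, the CCAAT boxes of SCD and FADS2 are shown and, for FADS1, which has none, the GC box nearest its start, with the motif in capitals, 5′ to 3′ on the strand of the gene. Not shown are GC boxes at -33 and -11 of SCD, -154 of FADS2 and -248 of FADS1, in bases from the start. None of the 4 windows holds another of these motifs. The FADS2 sequence, like every FADS2 match counted here, is that of the upstream start, not of FADS2-202. The FADS2 CCAAT box lies 5 bases after that start, not before it. The bases of its window are also printed above, as the coding end of the first exon of another FADS2 transcript. The bin at the upstream start, chr11:61816404-61816426, held 20 counts over all libraries.
SCD, chr10:100346992-100347021, plus strand: gattgcgccgagCCAATggcaacggcagga
SCD, chr10:100347035-100347064, plus strand: aattcccttcggCCAATgacgagccggagt
FADS2, chr11:61816397-61816426, plus strand: tccgcaggacacCCAATcaccgggcaacag
FADS1, chr11:61817191-61817220, minus strand: tcaaccccggccCCGCCCacccttcctgcg
The capitals in FADS1 are the GC box read on the other strand. Motif matches were found both in members that fell and in members that did not. Their part in the changes was not tested. FADS3 and SCD5 held both a CCAAT box and a GC box, and FADS1 held no CCAAT box. For FADS2 the matches describe the upstream start only.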

How the data were processed

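RNA-seq of 3 WT and 3 MUL1(−/−) libraries of HEK293 was analysed. Raw counts per exon bin were deposited by the authors for each library, without normalization. The submitters' processing notes name Trimmomatic 0.36, STAR 2.5.2b and GRCh38, with no role stated, and the counting program is not given in the sources used here. The analysis plan was written for one count per gene, and for each gene the bins were therefore added up. Of the 54848 identifiers, 2031 join overlapping genes on a strand and held 20.98% of counts, and their bins went to the gene whose GENCODE 29 exons alone cover them, which left 4.37% of counts joined. In 15 pairs of identical bins on opposite strands with at least 20 counts the median ratio was 1.0, so strand was not used in counting. A read was counted in each bin it touched, so sums exceed reads. Taking the top bin of each gene instead gave library totals of 24991469 to 29534119. The floor of 3 counts (0.0203 to 0.0231 CPM) covers counting error only, while SEs and intervals of fold changes include the spread between libraries.

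Tests across genes and across bins used edgeR 4.0.16 (R 4.3.3) (TMM, filterByExpr, quasi-likelihood test, Benjamini-Hochberg over 26416 genes or 330941 bins), and shares of a bin within its gene with diffSpliceDGE over 323972 bins. Thresholds (adjusted p under 0.05, absolute log2 fold change above 1) follow the paper's methods, whose DESeq2 test was an alternative here (DESeq2 1.42.0), as were limma-voom (limma 3.58.1), RLE factors, library totals, other filters, the replicate block, each replicate left out, the most counted bin, bins free of other genes' exons, joined identifiers kept whole, the adjusted p alone and glmTreat. Ratios were tested by exact permutation with scipy 1.17.1. The edgeR, DESeq2, limma-voom and replicate block fits of genes and the edgeR and diffSpliceDGE fits of bins were run on simulated counts. The other gene-level alternatives were not. Between libraries of one genotype, chi-square divided by its degrees of freedom was 3.10 to 10.8, above sampling noise, and all 6 libraries were used. The members, the 7 lists and the tests were chosen with earlier results of these data known, and the ratios of single bins within FADS2 and ELOVL5 after seeing the bins. Genes were named by rule: the 10 members and MUL1, list genes past both thresholds, SREBF1, SREBF2, ELOVL1, ELOVL3, FASN, ACACA, TMEM258, FEN1, HSD17B12 and TECR, the 3 nearest genes to FADS1 and FADS2, the 2 most counted bins of each member and bins whose share differed. PEX7, HACD2, HACD3, the marker genes with values and the other bins were named after their values were seen. MLXIPL, NR1H2, ACSS2 and SLC25A1, shown in a figure, were outside the rule.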

Additional observations from a re-analysis of the deposited data

How the results depend on the processing

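FADS1 stayed past both thresholds in all 16 alternative fits that test against no change, with log2 fold changes of -1.38 to -1.24, and FADS2 in 15 of 16. With joined identifiers kept whole, FADS2 was counted with FEN1 and gave -0.26, and the members lower by both thresholds numbered 1 in place of 2. SCD passed the adjusted p in all 16, from -0.90 to -0.55. With glmTreat FADS1 and FADS2 passed (adjusted p = 0.0106 and 8.54e-08) and the other 8 members had an adjusted p of 1. In the fits that test against no change, ELOVL5 passed the adjusted p in 11 of 16 and ELOVL6 in 15 of 16. ELOVL5 gave 0.24 to 0.46 when single libraries were left out and 0.27 with the most counted bin. ELOVL6 gave 0.21 to 0.27 when single libraries were left out. ELOVL7 gave -0.27 to -0.11 with single libraries left out. Values near 0 changed sign for FADS3 (0.0016 with library totals, 0.0041 with the most counted bin) and ELOVL2 (0.0203 with library totals), and none of these passed the test. By the adjusted p alone, 2 members rose, and 16 list genes rose and 18 fell. List genes higher by both thresholds were 0 with at least 1 CPM in at least 3 samples, 0 with the most counted bin and 0 to 1 with single libraries left out. Member bins that rose numbered 7 to 14, and those whose share differed 4 to 7, with single libraries left out. Bin values that changed sign were those of FADS3 from 61875851 (-4.73e-05 with RLE factors, -0.0817 to 0.147 with single libraries left out), ELOVL7 from 60754458 (-0.0989 to 0.0337) and ELOVL4 from 79919420 (-0.0809 to 0.0767). The causes were not tested beyond what each alternative removes.

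Across genes, no pairing of the samples by replicate number was seen. Same-numbered libraries had deviations that correlated at r = -0.0953, 0.165 and 0.0989 over 16603 genes. Libraries with different numbers gave r between -0.184 and 0.0993. These correlations cannot exclude a replicate effect confined to some genes, such as those lowest in the third library of both genotypes. With the replicate number as a block, FADS1 gave -1.32, FADS2 -2.32 and SCD -0.82, and 67 member bins fell and 14 rose. The SE of SCD was 0.12 with the block and 0.15 without the block. The block changed the call of none of the 10 members. With 3 libraries a group, the SE of the members ran from 0.07 to 0.15 on the log2 scale, which limits the changes that could be detected.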
